A study of Homo sapiens with 4 samples.

Results

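The genes examined here encode mitochondrial chaperones and proteases, compared between wild-type (WT) and THUMPD1 knockout (KO) human embryonic kidney cells. They were taken from the count table by their symbols: HSPD1, HSPE1, HSPA9, TRAP1 and DNAJA3 for the chaperones, LONP1, CLPP, YME1L1 and OMA1 for the proteases, and KIAA0141, the older symbol of DELE1, for a stress relay. Of these 10 symbols, 9 were listed among the 18917 genes of the count table, and all 9 were expressed highly enough to be tested. HSPE1 had no entry of its own and is given no value. RNA was sequenced in 4 libraries, 2 of each genotype, from cells grown with 10% serum and 2 mM glutamine and given no other treatment. The labels call the line HEK293, and the study's methods call it HEK-293T. THUMPD1, which carries the acetyltransferase NAT10 to transfer RNA, was disrupted with a pair of CRISPR-Cas9 guides and the candidate lines were then sorted as single cells, so that genotype and clone cannot be told apart. No label states that the libraries of a genotype came from separate cultures, so the p-values measure only the spread between these libraries, which may be technical.

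Most mitochondrial proteins are made in the cytosol, threaded unfolded through the membranes and folded again in the matrix. The motor that pulls them in is HSPA9 (mtHsp70, mortalin), and folding is completed in a closed chamber built of HSPD1 (Hsp60) and its lid HSPE1 (Hsp10). Damaged or surplus proteins are cut up by the matrix proteases LONP1 and ClpXP and by membrane-bound proteases, of which YME1L1 faces the intermembrane space. When mitochondria fail, OMA1 cleaves DELE1, which leaves for the cytosol and switches on the kinase HRI (EIF2AK1). This route converges with GCN2, the kinase at the centre of the study, on phosphorylation of eIF2α. Under such stress, genes for mitochondrial chaperones and proteases are a classical readout, known as the mitochondrial unfolded protein response.

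The 4 libraries held between 7875722 and 11362363 counts. THUMPD1, the targeted gene, had 356 and 468 counts in WT and 71 and 58 in KO libraries, which matches the labels. Values below are CPM, the count of a gene scaled to a library of 1000000 counts, with edgeR's TMM factors, and a gene was called where its adjusted p from edgeR, over the 13128 genes tested, was under 0.05. Of the markers fixed for the line, NEFM, a neurofilament gene, had 1416 and 1944 counts in WT but 305 and 245 in KO libraries, whereas LHX1, a kidney transcription factor, had 6 and 6 in WT and 37 and 27 in KO libraries. NEFL, a second neurofilament gene, had 462 and 667 counts in WT and 850 and 850 in KO libraries, and PAX2 lay between 51 and 92 counts in all 4. VIM, the remaining marker, had 2432 and 3392 counts in WT and 3735 and 3770 in KO libraries. The summed level of the 5 markers, of which VIM was the largest part, was 535 to 554 CPM in WT and 450 to 475 CPM in KO libraries (scaled by the total count alone). Among markers of cells that should not be present, the 5 blood cell markers summed to at most 0.762 CPM, with HBB at 0. The 5 fibroblast markers summed to at most 30.6 CPM, and 2 of them were expressed highly enough to be tested. Most of that sum was COL1A1, with 194 and 228 counts in WT and 246 and 197 in KO libraries. The 4 of 5 epithelial markers that were listed summed to at most 10.8 CPM. Of these, CDH1 had 71 and 90 counts in WT and 109 and 76 in KO libraries, and KRT5 and KRT14 were at 0. The part of these differences in the results below was not tested.

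Of the 9 listed genes, 4 fell in THUMPD1 KO cells, 0 were called higher and 5 did not pass the threshold. HSPA9 fell by 14.7%, LONP1 fell by 19.7%, TRAP1 fell by 24.9% and DNAJA3 fell by 38.3%. Of all genes tested, 12.1% were called lower and 8.79% higher. DNAJA3 and TRAP1 lie on chromosome 16, most of whose genes were lower in KO cells. The median log2 fold change of the 9 genes was -0.19, against 0.01 for all tested genes. This median is the value of YME1L1, and it was -0.09 without WT replicate 1, -0.04 relative to the chromosomes and 0.02 relative to neighbouring genes. HSPD1, CLPP, YME1L1, OMA1 and KIAA0141 were the genes not called. Both KO libraries lay below both WT libraries in 5 of the 9 genes and above them in 2, where the shares over all tested genes were 30.0% and 30.4%. Without the 2 genes on chromosome 16, 2 of 7 were called lower and the median was -0.09. The values over all tested genes include chromosome 16.

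**Figure D1:**
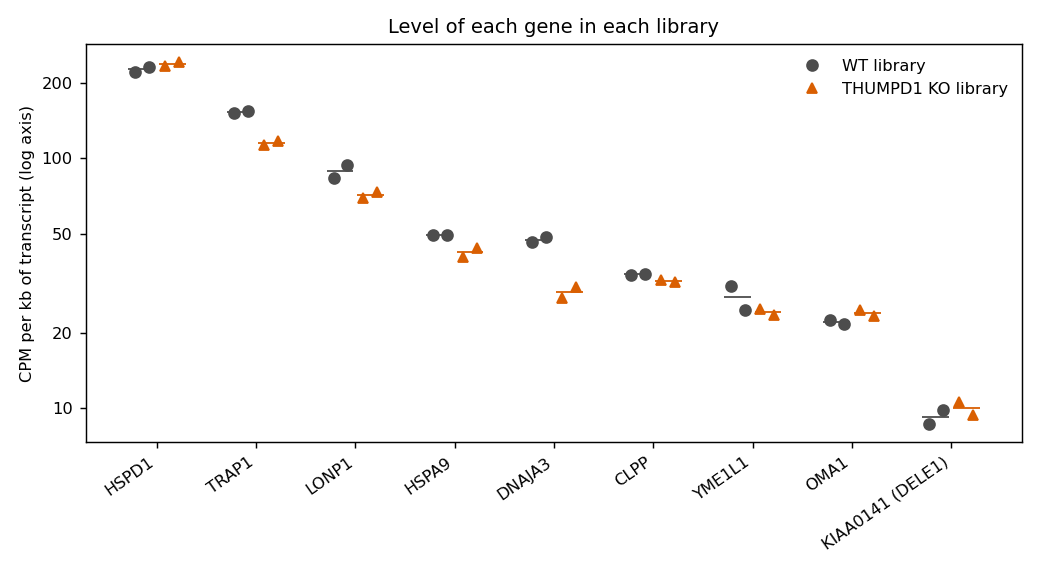
Level of the 9 listed genes in each library, in CPM per kilobase of the MANE Select transcript on a log axis; circles are WT and triangles KO libraries, and horizontal lines are the mean of 2 libraries. The KO libraries lie below the WT libraries for TRAP1, LONP1, HSPA9, DNAJA3 and CLPP, above them for HSPD1 and OMA1, and overlap with them for YME1L1 and KIAA0141.

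To compare one gene with another, CPM were divided by the length of the MANE Select transcript of GENCODE 44. Which transcripts these cells used was not tested, so the order of the genes rests on these assumed lengths. On this scale the 9 genes spanned more than an order of magnitude. HSPD1 stood highest, at 228 ± 7.53 CPM per kb in WT and 239 ± 6.56 in KO cells (SD, n = 2 per genotype). TRAP1 came next, at 153 ± 1.95 in WT and 115 ± 2.56 in KO, and then LONP1, at 88.9 ± 7.16 in WT and 71.5 ± 3.09 in KO. Each of these 3 lay above the next gene in every library. HSPA9, at 49.4 ± 0.281 in WT and 42.1 ± 2.63 in KO, also lay above DNAJA3 in every library, by little in WT (47.3 ± 1.52) and by more in KO (29.2 ± 2.10). CLPP lay below DNAJA3 in both WT libraries (34.3 ± 0.139) and above it in both KO libraries (32.2 ± 0.423). YME1L1 (27.9 ± 4.35 in WT) and OMA1 (22.1 ± 0.605 in WT), both proteases of the inner membrane, did not overlap in WT but did in KO libraries (24.2 ± 0.895 and 24.0 ± 0.840). KIAA0141 was lowest, at 9.22 ± 0.829 in WT and 9.98 ± 0.851 in KO cells. The order by mean was the same in both genotypes except for DNAJA3 and CLPP, which changed places.

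HSPD1 makes up the wall of the folding chamber. It had 499 and 523 CPM in the WT libraries and 525 and 546 CPM in the KO libraries. The KO libraries lay just above the WT libraries, by less than the distance between replicates. HSPD1 had a log2 fold change of 0.07 (standard error 0.06, adjusted p = 0.466, edgeR), with a 95% interval from -0.06 to 0.19. With counts scaled by library size alone HSPD1 was at 0.15 (adjusted p = 0.0615, edgeR). After quantile normalization it was at 0.13 (adjusted p = 0.0742, limma-voom), so that the upper end of the interval depends on the scaling. GENCODE 44 names 18 pseudogenes of HSPD1 and 26 of HSPE1, and how reads shared with them were counted is not stated.

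In the genome HSPD1 and HSPE1 stand head to head on chromosome 2. Between their outermost RefSeq starts lie only 104 bases, printed here because both genes are read outward from them; a second, inner start of HSPD1 has in front of it a cluster of heat shock elements, the sites of the heat shock factors. Both stretches are from RefSeq on GRCh38.p14. The first is on the plus strand, at chr2:197500275-197500378, and the second on the minus strand, at chr2:197500063-197500090, with motif matches in capitals (a GC box in the first, heat shock elements in the second).
HSPD1-HSPE1 shared stretch: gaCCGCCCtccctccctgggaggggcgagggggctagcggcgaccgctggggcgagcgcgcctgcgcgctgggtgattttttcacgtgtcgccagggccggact
HSPD1 heat shock element stretch: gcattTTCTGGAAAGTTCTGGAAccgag

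Although HSPE1 was not listed, the readthrough gene HSPE1-MOB4 was, which joins HSPE1 to its neighbour MOB4. Whether reads of HSPE1 were counted there is not stated. HSPE1-MOB4 had 301 and 314 CPM in WT and 241 and 274 CPM in KO libraries, so that the KO libraries lay below the WT libraries. Its log2 fold change was -0.26 (standard error 0.07, adjusted p = 0.00693, edgeR), and without KO replicate 1 the call was lost, at -0.17 (adjusted p = 0.194, edgeR). Counts of HSPE1-MOB4 relative to HSPD1 were 0.603 and 0.601 in WT and 0.459 and 0.503 in KO libraries. The ratio was lower in both KO libraries, by more than the spread between replicates, but the two-sided exact permutation test gave p = 0.333, the smallest that 2 libraries against 2 allow.

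HSPA9 had 218 and 217 CPM in the WT libraries and 177 and 194 CPM in the KO libraries. Both KO libraries were lower, and the gap was wider than the distance between them. HSPA9 was called lower at a log2 fold change of -0.23 (standard error 0.07, adjusted p = 0.0138, edgeR). The call was lost when counts were scaled by library size alone (-0.15) and without KO replicate 1 (-0.17). It was also lost after quantile normalization (-0.18, adjusted p = 0.0511, limma-voom).

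DNAJA3 (Tid1), the J-domain protein that delivers clients to HSPA9, showed the largest difference among the 9 genes. It had 956 and 1434 counts in WT libraries but 866 and 882 in the KO libraries, although WT replicate 1 was the smallest library, and in CPM 125 and 130 against 74.8 and 82.8. The genotypes were far apart relative to their replicates. The log2 fold change of DNAJA3 was -0.70 (standard error 0.08, adjusted p = 5.54e-07, edgeR).

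TRAP1, the mitochondrial member of the Hsp90 family, had 338 and 344 CPM in WT and 252 and 260 CPM in KO libraries. All KO values were below all WT values, and replicates differed by a few percent. Its log2 fold change was -0.41 (standard error 0.06, adjusted p = 2.30e-05, edgeR). DNASE1, which overlaps TRAP1 on the opposite strand, had 102 and 103 counts in KO libraries against 2917 and 2769 for TRAP1, and whether the counting used strand is not stated.

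TRAP1 and DNAJA3 are near neighbours on chromosome 16, with 5 tested genes between them. All 5 had a log2 fold change below 0, from -0.88 (CORO7-PAM16) to -0.30 (GLIS2), and 4 were called lower. CORO7-PAM16, a readthrough gene that joins CORO7 to PAM16, which encodes a subunit of the import motor, had 109 and 108 CPM in WT and 61.8 and 55.9 CPM in KO libraries. Of the 573 tested genes of chromosome 16, 87.4% were below 0 and 50.6% were called lower, and the median was -0.44. Chromosome 22 had a median of -0.42, whereas the medians of the other 21 chromosomes with more than a single tested gene ran from -0.06 to 0.09. Measured against its chromosome, by an offset that sets the chromosome median to 0, TRAP1 was at 0.03 (adjusted p = 0.802, edgeR) and DNAJA3 at -0.26 and still called. Measured against the 20 nearest tested genes, DNAJA3 was at -0.01 (adjusted p = 0.922, edgeR), while TRAP1 turned to 0.18 (adjusted p = 0.0407, edgeR). Both kinds of offset came from these same libraries and were taken as fixed. The adjusted p therefore leaves out the spread among the genes of the chromosome or the neighbours. The difference of these 2 genes between KO and WT and that of the chromosome segment around them cannot be told apart in these libraries. The 250 bases before each start, from RefSeq on GRCh38.p14, are given because the genes fell together, with GC boxes and CCAAT boxes of either strand in capitals; TRAP1 is read from the minus strand at chr16:3717525-3717774 and DNAJA3 from the plus strand at chr16:4425618-4425867.
TRAP1: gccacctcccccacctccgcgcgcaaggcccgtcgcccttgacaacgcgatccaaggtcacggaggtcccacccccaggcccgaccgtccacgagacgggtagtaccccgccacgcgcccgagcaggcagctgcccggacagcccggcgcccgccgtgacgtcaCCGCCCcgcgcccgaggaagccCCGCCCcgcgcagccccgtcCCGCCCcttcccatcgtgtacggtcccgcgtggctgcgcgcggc
DNAJA3: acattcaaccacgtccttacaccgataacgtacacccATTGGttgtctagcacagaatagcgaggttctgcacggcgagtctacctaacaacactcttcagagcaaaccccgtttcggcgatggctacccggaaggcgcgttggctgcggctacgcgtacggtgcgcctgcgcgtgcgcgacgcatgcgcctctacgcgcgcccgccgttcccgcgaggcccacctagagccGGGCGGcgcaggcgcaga

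**Figure D2:**
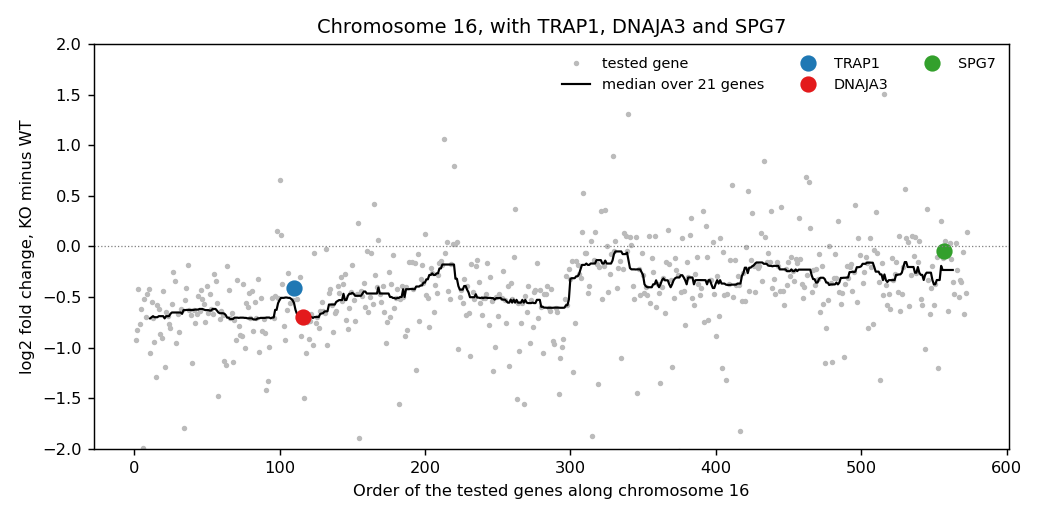
log2 fold change (KO minus WT) of the tested genes of chromosome 16 in their order along the chromosome, with the median over 21 neighbouring genes as a line; 7 genes lie beyond the axis. TRAP1 (-0.41) lies somewhat above and DNAJA3 (-0.70) on the line at their place, and SPG7 (-0.05), near the other end, lies above it.

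LONP1 is the ATP-dependent protease that clears oxidized and unfolded proteins from the matrix. It had 259 and 290 CPM in WT and 214 and 228 CPM in KO libraries. Both KO libraries were below both WT libraries, although the WT libraries differed from each other more than the KO libraries did. The log2 fold change of LONP1 was -0.32 (standard error 0.07, adjusted p = 0.00131, edgeR), and it was called lower in every alternative, and with each library left out at -0.39 to -0.23. On chromosome 19 the median was -0.05, and against its 20 nearest tested genes LONP1 was at -0.36. RPL36, which overlaps LONP1 on the other strand, moved the other way, with a log2 fold change of 0.16.

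CLPP, the barrel of the ClpXP protease, had 82.4 and 82.9 CPM in WT and 78.3 and 76.9 CPM in KO libraries. Replicates nearly coincided and the KO libraries were lower by a few CPM, but the log2 fold change of -0.09 (standard error 0.08, adjusted p = 0.484, edgeR) did not pass the threshold, and its 95% interval ran from -0.26 to 0.08. CLPX, the unfoldase that feeds the barrel, had 13.0 and 16.3 CPM in WT and 15.5 and 17.9 CPM in KO libraries. Its log2 fold change of 0.18 (standard error 0.18, adjusted p = 0.532, edgeR) was not called. Counts of CLPX relative to CLPP were 0.158 and 0.196 in WT and 0.198 and 0.233 in KO libraries, which do not overlap but lie within the spread of replicates (two-sided exact permutation p = 0.333, the smallest possible).

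YME1L1, which cleaves the fusion protein OPA1 and degrades import subunits at the outer face of the inner membrane, had 130 CPM in WT replicate 1 and 104 CPM in WT replicate 2. In KO libraries it had 104 and 98.8 CPM. The genotypes overlapped, and WT replicate 1 stood apart from the other 3 libraries. The log2 fold change of -0.19 (standard error 0.09, adjusted p = 0.124, edgeR) was not called. Without WT replicate 1 it was -0.03, and without WT replicate 2 it was -0.35 and passed the threshold. MASTL overlaps YME1L1 on the opposite strand, with a log2 fold change of 0.07.

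OMA1, the stress-activated protease that cuts both OPA1 and DELE1, had 42.0 and 40.4 CPM in WT and 45.8 and 43.6 CPM in KO libraries. KO values were higher without overlap, but the log2 fold change of 0.12 (standard error 0.11, adjusted p = 0.485, edgeR) was not called, with an interval from -0.11 to 0.35. DAB1, which overlaps OMA1 on the same strand, had 58 and 113 counts in WT and 120 and 148 in KO libraries. Its log2 fold change of 0.42 (standard error 0.23, adjusted p = 0.209, edgeR) was not called. How reads shared by OMA1 and DAB1 were counted is not stated. KIAA0141 (DELE1) had 42.4 and 48.1 CPM in WT and 51.9 and 46 CPM in KO libraries, which overlap. Its log2 fold change was 0.11 (standard error 0.11, adjusted p = 0.532, edgeR), with an interval from -0.12 to 0.34, and it ran from 0.02 to 0.21 with a library left out. The intervals of OMA1 and KIAA0141 were the widest of the 9 genes.

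**Figure D3:**
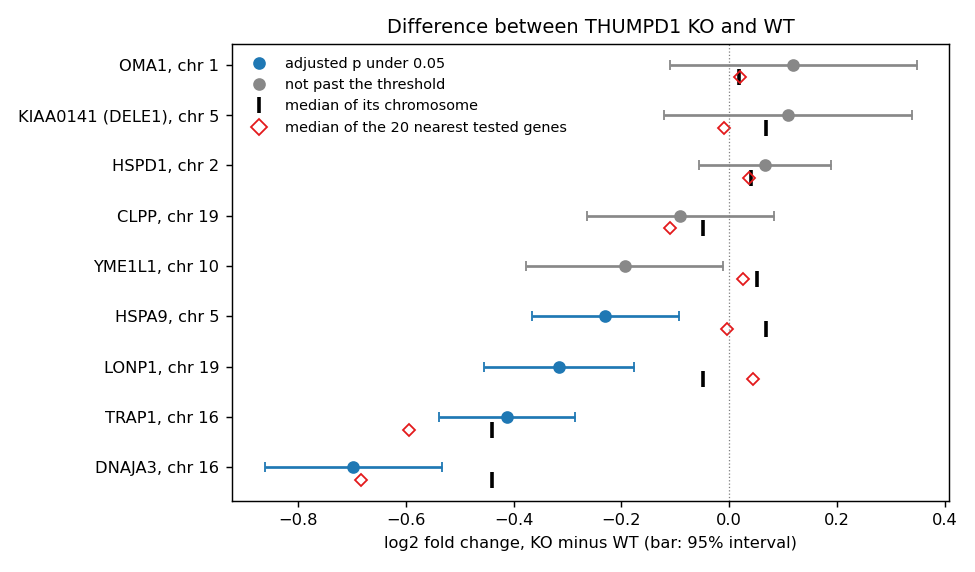
log2 fold change (KO minus WT) of the 9 genes with its 95% interval from edgeR, blue where the adjusted p was under 0.05; black ticks are the median of the gene's chromosome and red diamonds that of its 20 nearest tested genes. DNAJA3 (-0.70) lies below the median of chromosome 16 (-0.44) and near that of its neighbours (-0.68). TRAP1 (-0.41) lies near the chromosome median and above that of its neighbours (-0.59). LONP1 (-0.32) and HSPA9 (-0.23) lie below both of theirs.

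The study concerns codons for leucine, so the coding sequences of the 9 genes were read for them. The share of leucine codons that were UUA, UUG, CUU or CUA ran from 11.2% in LONP1 (11 of 98) and 14.8% in CLPP (4 of 27) to 77.0% in YME1L1 (57 of 74), 72.9% in HSPD1 (35 of 48) and 72.3% in OMA1 (47 of 65). HSPA9 had 66.7%, DNAJA3 48.1%, KIAA0141 41.3% and TRAP1 21.7%. The median over 12885 tested genes was 40.8%, with quartiles at 22.6% and 61.3%. The chaperones and proteases thus sit on both sides of the typical gene, and the 4 genes that fell include the lowest share as well as 1 above the upper quartile.

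RefSeq promoter windows, from 250 bases before the start to 50 after it, were found for 8 of the 10 symbols (10 windows, of which those of HSPE1 and of the outer start of HSPD1 overlap); CLPP and YME1L1 had none. Heat shock elements (GAANNTTC or TTCNNGAA, each its own reverse complement, and able to overlap) were matched in 2 of the 10 windows, those of HSPA9 and of the inner start of HSPD1, which held 3 overlapping matches. Over all 35116 windows 13.5% held a match. The C/EBP-ATF composite element (TGATGNAA, both strands), through which CHOP and ATF4 act, was matched in 0 of the 10 windows and in 3.62% of all. The CCAAT box was matched in 2 windows (34.6% of all) and the GC box (GGGCGG) in 9 (45% of all), both on either strand.

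Beyond these genes, a list of 54 other genes of mitochondrial protein quality control and import was examined, of which 53 were tested and 1, PAM16, had no entry of its own. Among them 6 were called higher and 8 lower, and their median log2 fold change was -0.03. Of the 53, 5 lie on chromosomes 16 and 22, and without them 5 of 48 were called higher and 6 lower. The shares of the 53 are near those of all tested genes. For the 48 no like share is given, since all tested genes include chromosomes 16 and 22, where 50.6% and 60.1% were called lower.

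Among the 9 tested partners of HSPA9, 1 was called higher and 1 lower, where 8.79% of all tested genes were higher and 12.1% lower. GRPEL1, its standing nucleotide exchange factor, had 76.7 and 79.1 CPM in WT and 72.7 and 82.0 CPM in KO libraries, a log2 fold change of -0.01. GRPEL2, the second exchange factor, rose from 60.0 and 54.1 CPM to 75.2 and 77.1 CPM, at a log2 fold change of 0.42 (standard error 0.09, adjusted p = 0.00196, edgeR). HSCB, the J-protein of iron-sulfur cluster assembly, lies on chromosome 22 and had a log2 fold change of -0.56 (standard error 0.16, adjusted p = 0.0131, edgeR). The call was lost without WT replicate 2 and without KO replicate 1, and against its chromosome HSCB was at -0.15.

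Among 16 other proteases and processing peptidases, 2 were called higher and 1 lower, against 8.79% and 12.1% of all tested genes. IMMP1L, a subunit of the inner membrane peptidase, rose from 35.9 and 28.8 CPM to 53.7 and 47.3 CPM, at a log2 fold change of 0.66 (standard error 0.12, adjusted p = 0.000397, edgeR). MIPEP, which removes the last residues of presequences in the matrix, fell from 22.3 and 22 CPM to 10.8 and 13.9 CPM, a log2 fold change of -0.85 (standard error 0.18, adjusted p = 0.00111, edgeR). PMPCB, the catalytic subunit of the main presequence peptidase, was at 0.27 (adjusted p = 0.0467, edgeR) and kept its call in 1 of 4 fits with a library left out, that without WT replicate 1. The subunits of the matrix-facing membrane protease did not pass the threshold: AFG3L2 was at -0.05 and SPG7, although on chromosome 16, at -0.05 too. Of 7 scaffolds and partners of these proteases, 1 was called higher and 0 lower, against the same shares of all tested genes. The higher gene was GHITM, an inner membrane protein that binds AFG3L2, at 0.29 (adjusted p = 0.00535, edgeR). GHITM lost the call without WT replicate 1.

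Of 6 substrates and relay genes of OMA1, YME1L1 and DELE1, 1 was called higher, 2 lower and 3 were not called, against 8.79% and 12.1% of all tested genes. OPA1, the fusion dynamin that both proteases cut, rose from 57.6 and 63.1 CPM to 84.3 and 83.4 CPM. The genotypes were well separated, at a log2 fold change of 0.47 (standard error 0.09, adjusted p = 0.000468, edgeR). PGAM5, a phosphatase cleaved in stressed mitochondria, fell from 197 and 180 CPM to 137 and 156 CPM, at a log2 fold change of -0.36 (standard error 0.07, adjusted p = 0.000908, edgeR). TIMM17A, an import channel subunit that YME1L1 degrades, was lower at -0.38 (adjusted p = 0.00672, edgeR), and lost the call without KO replicate 1 (adjusted p = 0.0831, edgeR). EIF2AK1, the kinase that DELE1 activates, had 225 and 225 CPM in WT and 218 and 226 CPM in KO libraries. Its log2 fold change of -0.02 had a standard error of 0.06. Neither PINK1 (0.02) nor EIF2S1 (-0.25) was called.

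Of 5 transcription factors tied to the mitochondrial unfolded protein response, 1 was called higher, 1 lower and 3 were not called, where 8.79% of all tested genes were higher and 12.1% lower. ATF5, which activates mitochondrial chaperone and protease genes, fell from 30.1 and 31.7 CPM to 20.7 and 23.9 CPM, at a log2 fold change of -0.47 (standard error 0.14, adjusted p = 0.0166, edgeR), and lost the call without WT replicate 2 and without KO replicate 1. ATF4, on chromosome 22, was higher at 0.16 (standard error 0.06, adjusted p = 0.0416, edgeR), but was called in 0 of 4 fits with a library left out, although all 4 gave 0.16 or 0.17. Against its chromosome ATF4 was at 0.58 and against its neighbours at 0.53. DDIT3 (CHOP) had between 29 and 50 counts in all libraries, and its log2 fold change of -0.19 (standard error 0.42) was not called.

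Of 10 import receptors and channel subunits, 3 were lower and 0 higher, against 12.1% and 8.79% of all tested genes. TOMM22, the central receptor of the outer membrane, lies on chromosome 22, where 60.1% of tested genes were lower, and fell from 127 and 128 CPM to 82.5 and 80.0 CPM, a log2 fold change of -0.65 (standard error 0.08, adjusted p = 8.54e-07, edgeR). Against its chromosome it was at -0.23. TIMM17B, on the X chromosome, was at -0.54 (adjusted p = 0.000544, edgeR), and TIMM50, named after its value was seen, at -0.35.

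**Figure D4:**
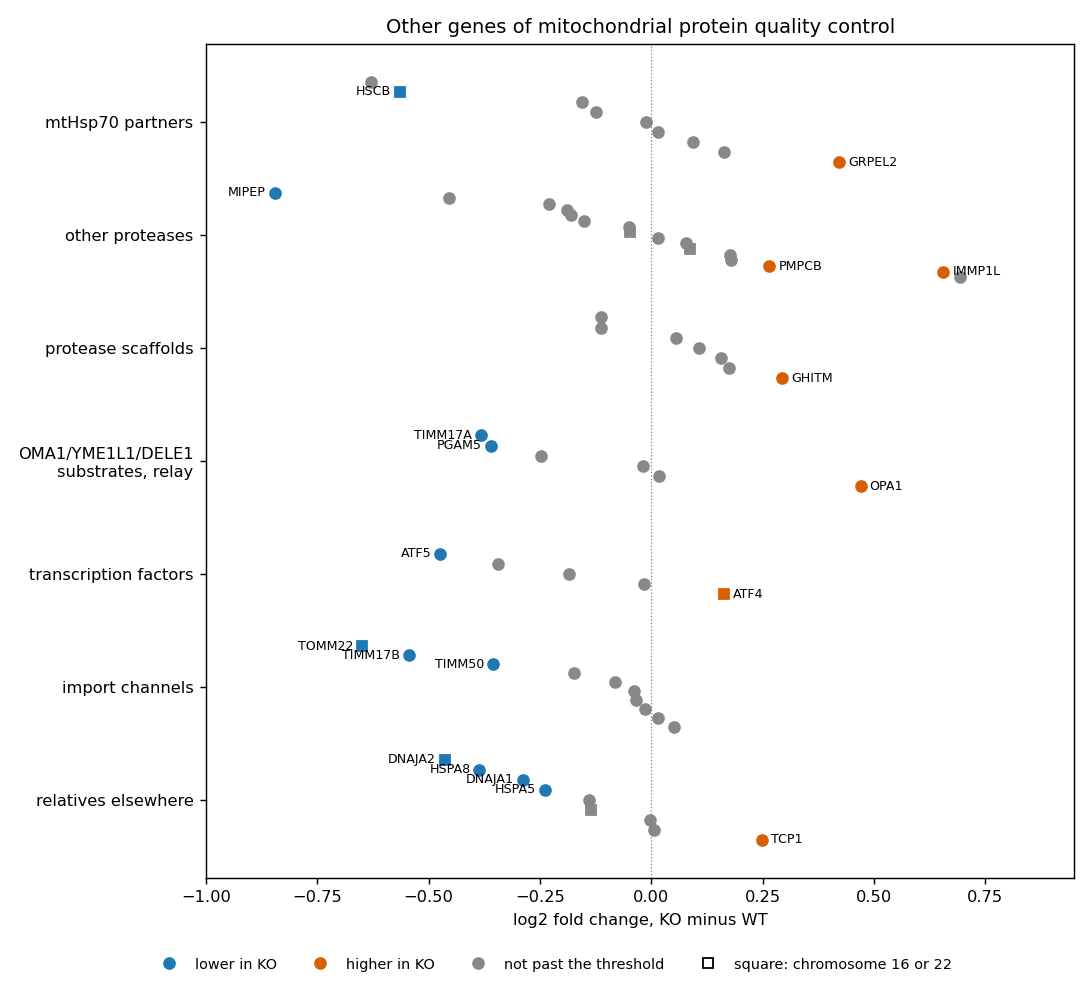
log2 fold change (KO minus WT) of 53 other genes of mitochondrial protein quality control in 6 groups, and of 9 relatives of the chaperones and proteases in other compartments; blue and orange mark genes lower and higher in KO cells at an adjusted p under 0.05, and squares mark chromosomes 16 and 22. GRPEL2, IMMP1L and OPA1 lie at the right, from 0.42 to 0.66, and MIPEP (-0.85) and TOMM22 (-0.65) at the left.

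Relatives of these proteins in the cytosol, the endoplasmic reticulum and the peroxisome were measured alongside, and of 9 tested 4 were lower and 1 was higher, where 12.1% of all tested genes were lower and 8.79% higher. The count of lower genes was that of the 9 mitochondrial genes. HSPA8, the cytosolic Hsp70, fell from 598 and 628 CPM to 472 and 466 CPM, at a log2 fold change of -0.39 (standard error 0.06, adjusted p = 3.28e-05, edgeR). DNAJA2, on chromosome 16, was at -0.46, and at -0.02 against its chromosome, and TCP1, a subunit of the cytosolic chaperonin, was higher at 0.25 (adjusted p = 0.0068, edgeR), a call lost without WT replicate 2 and without KO replicate 1. DNAJA1 and HSPA5, named after their values were seen, were lower at -0.29 and -0.24, and DNAJA1 lost the call without KO replicate 1. Under the 7 other scalings, tests, filters and block, HSPA5 kept its call in 6.

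**Figure D5:**
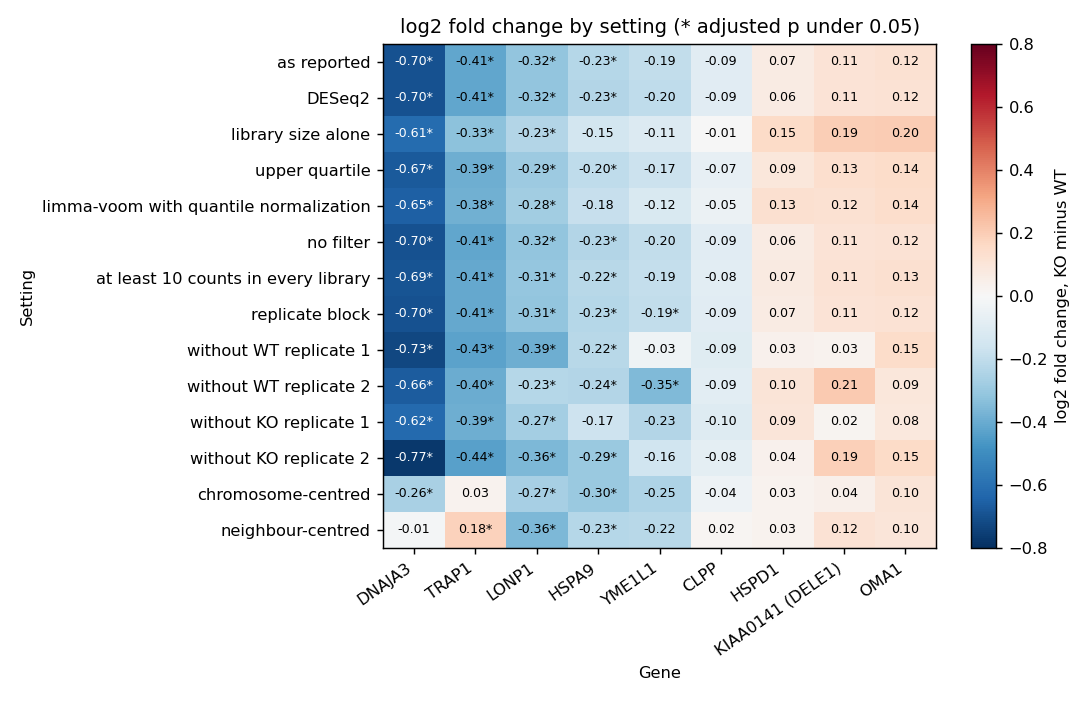
log2 fold change (KO minus WT) of each of the 9 genes (columns) as reported and under each other setting (rows), with an asterisk where the adjusted p was under 0.05. LONP1 was called in every row, DNAJA3 in every row but the neighbour-centred, where it was at -0.01, and TRAP1 kept its direction except in the chromosome-centred and neighbour-centred rows, at 0.03 and 0.18.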

How the data were processed

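RNA-seq of 2 WT and 2 THUMPD1 KO libraries was used; columns were matched to samples by name. Values deposited by the authors are unnormalized counts for each symbol. The labels name hg19 and a RiboFree kit; the paper's RNA-seq section gives RSEM after STAR, on GRCh38, and 3 samples per genotype, so which pipeline made the counts is not given in the sources used here. A table of the authors' own comparison, with fold changes and p-values, was not used.

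The 13128 genes reaching 1 CPM in 2 or more libraries were fitted in R 4.3.3 with edgeR 4.0.16 (TMM, glmQLFit, glmQLFTest, genotype alone, Benjamini-Hochberg adjustment). Standard errors were derived from the fold change and its F statistic. DESeq2 1.42.0 and limma 3.58.1 served as alternatives. The limma fit used voom with quantile normalization, the method named in the paper's RNA-seq section, and called 3 of the members. Each library was kept as a replicate, since libraries of a genotype differed beyond counting noise (chi-square over its degrees of freedom 4.14 for WT, 7.20 for KO). Such a difference does not show that they came from separate cultures. On simulated counts of 13128 genes, the edgeR comparison called 93 of 100 changes of 1 on the log2 scale. Of 100 changes of 0.5 it called 55 (52 of 69 at 20 CPM or more), and 6 unchanged genes were called. The simulation gave all genes the same relative spread, changed far fewer genes than were called here and shifted no chromosome. These rates may therefore differ from those in the real libraries. Its pass mark was reset, from power to bias and error rate, after a first run.

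Genes were placed by symbol or RefSeq synonym on GENCODE 44 (GRCh38), 13021 of those tested; transcripts were MANE Select. Members and lists were chosen with earlier results of these data known. All members are named, and from the other lists the 2 largest rises and falls called in each group, plus 11 genes fixed by name. PINK1 and EIF2S1, neither of them called, were named outside this rule, as were TIMM50, DNAJA1 and HSPA5. Genes of the count table that overlap a member are named too. Alternatives were other scalings, tests and filters, the replicate number as a block, each library left out, and fold changes relative to the chromosome or to 10 tested genes on either side.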

Additional observations from a re-analysis of the deposited data

How the results depend on the processing

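The number of chaperone and protease genes called, 4, lay between 3 and 5 under the alternatives and with each library left out. These calls were lower in KO cells throughout, except relative to neighbouring genes, where 2 were lower and 1, TRAP1, was higher. That last comparison takes the median of the neighbours as fixed and leaves out their spread. The 53 other genes, with 14 called, gave 9 to 14 with a library left out, the lowest without KO replicate 1. Over all tested genes, 2748 calls became 1764 with DESeq2 and 1594 at an adjusted p of 0.01, and ran from 1620 to 2591 with a library left out, the lowest again without KO replicate 1. A stricter threshold and fewer libraries give fewer calls by construction, while why DESeq2 gave fewer was not tested. Scaling by library size alone turned 1154 higher and 1594 lower genes into 2081 and 1158 and moved the median from 0.01 to 0.09. Relative to its 20 neighbours CLPP was at 0.018 and TRAP1 at 0.18, and relative to its chromosome TRAP1 was at 0.028; the nearest genes of TRAP1 include DNAJA3 and the reverse.

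With the replicate number as a block, 5 of the 9 genes were called, YME1L1 being added at -0.19 (adjusted p = 0.0483, edgeR), and 3222 of all genes. Same-numbered libraries deviated together with a correlation of only 0.02 across genes, and no label says that the number marks a shared batch. The ratio of HSPE1 to HSPD1 could not be computed, and that of HSPE1-MOB4 was chosen after seeing the data.

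With 1 library left out, the lone library is assumed to vary like the others. Counts carry no molecular identifiers, so that depth is known only in reads, and the least abundant of the 9 genes, OMA1 and KIAA0141, had the widest intervals.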
